A study of Mus musculus with 14 samples.

Results

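In hearts loaded by constriction of the aorta, acetylated lysine 9 of histone H3 (H3K9ac) was compared between mice fed 60% and mice fed 10% of their energy as fat. The comparison covers all 38150 regions of the genome in which the authors measured the mark at these diets, of which 18950 overlap a promoter and 19200 do not. It rests on 2 of the 14 libraries of the series, 1 for each diet. Both came from nuclei of the hearts of C57Bl/6J males at 12 weeks of age that went through transverse aortic constriction (TAC), a surgery that narrows the aorta and makes the left ventricle pump against a high pressure. The 60% fat (HiFat) or the 10% fat (control) diet began 4 days before the surgery and went on for 1 week after it. Each library is labelled as a pool of 3, so the spread between mice is not known, no test was made, and every difference given is one between 2 libraries. A sham-operated library on each diet, in the same table, and H3K9Bu (butyrylated lysine 9) libraries from the same TAC groups were set beside it.

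H3K9ac marks the chromatin around the starts of active genes and many active enhancers, and acetyl groups for it come from acetyl-CoA, to which fat oxidation contributes. The adult heart draws most of its energy from fatty acids, and dietary fatty acids are ligands of the nuclear receptors PPAR alpha and PPAR delta, which switch on genes for fat uptake and oxidation. Pressure overload is known for a return of fetal genes such as Nppb, for matrix production by fibroblasts, and for division of non-muscle cells of the heart.

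The groups of genes at the ends of the comparison were cell division genes, higher at 60% fat, and sarcomere genes, lower. The promoters of Mki67, Cdk1 and Ccnb2 (mitosis), of Uhrf1 and Cdc6 (DNA replication) and of Actc1 (cardiac actin) are shown because the results turn on those groups. Each is the RefSeq window (GRCm38.p6) of 300 bases, from 250 before to 50 after a gene start that lies in the gene's H3K9ac region. The windows are chr7:135716330-135716629 (minus strand) for Mki67, chr10:69352863-69353162 (minus) for Cdk1, chr9:70421505-70421804 (minus) for Ccnb2, chr17:56304063-56304362 (plus) for Uhrf1, chr11:98907901-98908200 (plus) for Cdc6 and chr2:114052826-114053125 (minus) for Actc1. In the first 5, capitals mark the CCAAT box (CCAAT), the cell cycle genes homology region or CHR (TTTGAA) and E2F sites (TTTCCCGC, TTTGGCGC, TTTCGCGC or TTTGCCGC). In Actc1 they mark the letters of the TATA box (TATAAA) and of the CArG box, the site of serum response factor. The TATAAA match in Actc1 lies in the 50 bases after the gene start used. Both strands were searched, and 0 marked matches overlap in each window.
Mki67: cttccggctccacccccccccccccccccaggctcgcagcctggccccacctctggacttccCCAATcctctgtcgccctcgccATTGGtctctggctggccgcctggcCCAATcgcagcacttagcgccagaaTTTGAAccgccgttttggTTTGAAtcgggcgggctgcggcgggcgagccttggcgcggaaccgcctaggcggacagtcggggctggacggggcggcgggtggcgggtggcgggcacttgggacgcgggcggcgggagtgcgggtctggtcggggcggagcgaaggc
Cdk1: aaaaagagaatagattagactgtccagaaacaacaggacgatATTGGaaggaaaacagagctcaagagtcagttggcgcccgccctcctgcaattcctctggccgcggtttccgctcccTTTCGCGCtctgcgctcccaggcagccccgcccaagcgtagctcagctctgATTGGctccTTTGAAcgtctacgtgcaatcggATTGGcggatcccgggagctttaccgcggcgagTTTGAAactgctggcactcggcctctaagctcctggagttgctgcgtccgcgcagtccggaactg
Ccnb2: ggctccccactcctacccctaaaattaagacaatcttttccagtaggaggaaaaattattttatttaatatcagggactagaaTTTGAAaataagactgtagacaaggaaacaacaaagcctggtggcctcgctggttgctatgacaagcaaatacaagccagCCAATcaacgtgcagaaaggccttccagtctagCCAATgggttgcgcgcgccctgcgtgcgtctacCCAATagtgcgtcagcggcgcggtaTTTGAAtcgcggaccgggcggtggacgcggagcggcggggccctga
Uhrf1: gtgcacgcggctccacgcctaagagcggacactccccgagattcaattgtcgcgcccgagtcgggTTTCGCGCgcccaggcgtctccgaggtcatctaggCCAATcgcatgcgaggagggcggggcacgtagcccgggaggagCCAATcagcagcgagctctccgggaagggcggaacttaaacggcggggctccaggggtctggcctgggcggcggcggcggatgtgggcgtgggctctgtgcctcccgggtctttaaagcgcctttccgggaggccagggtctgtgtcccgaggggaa
Cdc6: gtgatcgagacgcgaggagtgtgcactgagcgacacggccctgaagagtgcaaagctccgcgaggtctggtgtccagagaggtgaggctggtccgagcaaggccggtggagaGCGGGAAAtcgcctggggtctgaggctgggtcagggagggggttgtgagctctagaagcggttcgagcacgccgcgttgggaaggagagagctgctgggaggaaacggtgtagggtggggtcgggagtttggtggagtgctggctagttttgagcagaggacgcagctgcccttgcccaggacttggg
Actc1: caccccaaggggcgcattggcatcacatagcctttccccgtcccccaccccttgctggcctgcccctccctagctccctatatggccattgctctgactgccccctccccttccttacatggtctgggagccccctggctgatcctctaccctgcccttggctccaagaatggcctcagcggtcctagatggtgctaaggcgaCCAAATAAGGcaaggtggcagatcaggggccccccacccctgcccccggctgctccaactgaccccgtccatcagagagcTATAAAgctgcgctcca

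Of the 14011 genes measured, 7772 had such a window. A CCAAT box and a CHR stood together in 15 of 21 windows of mitosis genes (71.4%), against 334 of all 7772 (4.3%). An E2F site was in 11 of 19 windows of DNA replication genes (57.9%), against 4.54% of all. A CArG box was in 3 of 17 sarcomere windows (17.6%), against 1.17%, and a TATA box also in 3, against 6.25%. These matches describe the letters only. Over all genes with both a CCAAT box and a CHR the median H3K9ac ratio was 0.02 on the log2 scale, and without both it was -0.01. Within the 21 mitosis windows it was 0.30 with both and 0.35 without both.

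The value of a region is the authors' average tag density over it, here called its signal. In the promoter regions its median was 43.0 after TAC at 60% fat, 40.9 after TAC at 10% fat, 37.4 in sham at 60% and 39.2 in sham at 10%. Estimated tags in all regions were 8668333, 8368113, 7936243 and 8228850 in the same order. Ratios are log2 of (signal at 60% + 1) over (signal at 10% + 1), relative to the median over promoter regions, which was 0.05 after TAC and -0.05 in sham. The TAC library at 60% fat had the highest signal of the 4 at 55.1% of the 14011 genes and the lowest at 11.6%. So single signals carry that general offset, and the ratios do not. The counting interval beside a ratio is the exact Clopper-Pearson one at 95%, from estimated tags, and covers counting error only.

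Most of the promoter regions had close to the same signal on both diets. Their quartiles were -0.11 and 0.13 on the log2 scale. At least 1.5-fold higher at 60% fat were 648 promoter regions, 3.42% of 18950, and at least 1.5-fold lower were 508 (2.68%). For 2-fold the counts were 90 (0.475%) and 75 (0.396%). Without the centring, the split at 1.5-fold was 809 against 411. Regions outside promoters varied more, with 1584 of 19200 (8.25%) at least 1.5-fold higher and 1338 (6.97%) lower, a split of 1941 against 1088 without the centring. At least 2-fold they numbered 277 (1.44%) and 222 (1.16%). Their median ratio was 0.02.

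The regions past 1.5-fold were mostly short and thinly covered. The higher promoter regions had a median length of 297 bp, against 1168 bp for all promoter regions, and 18.7% of them held a CpG island, against 60.0% of all. Of the promoter regions with under 50 tags in the larger TAC library, 11.2% were higher and 9.15% lower. At 500 tags or more those shares were 0.0537% (3 regions) and 0.0179% (1 region) of 5582. Regions that the authors called at 60% fat alone (1292 promoter regions) had a median ratio of 0.45, and those called at 10% fat alone (761) one of -0.46. The call uses the same signal, so those medians are a description of how the regions were called.

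**Figure D1:**
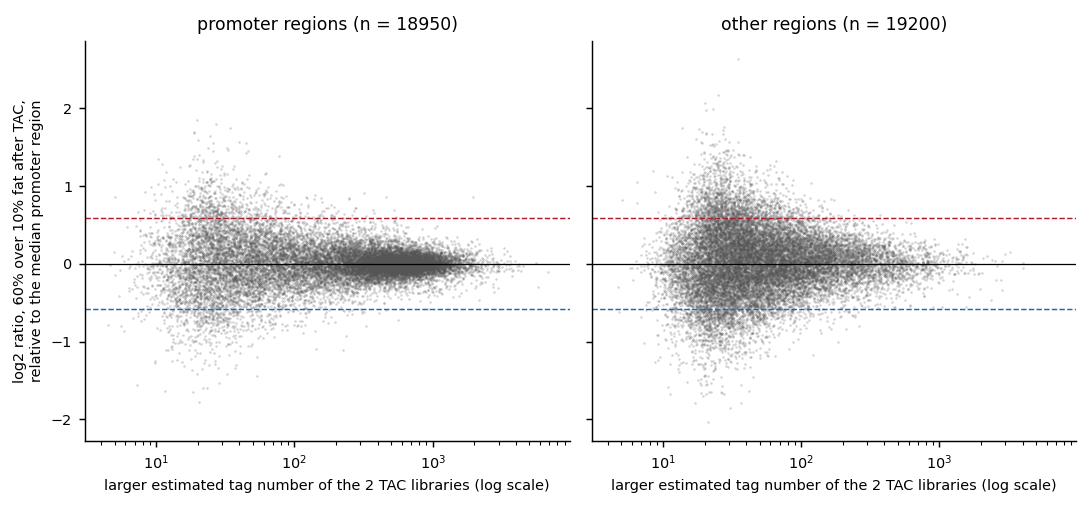
Each point is 1 region, with the larger estimated tag number of the 2 TAC libraries on a log axis and the log2 ratio of H3K9ac at 60% over 10% fat after TAC on the vertical axis; dashed lines mark 1.5-fold. Points spread widely at few tags, and at 500 tags or more 3 promoter regions lie above the upper line and 1 below the lower.

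Each gene was given its strongest promoter region, and regions below the 25th percentile of the mean signal over the 4 libraries were left out, which kept 14011 of 14590 genes. Of these, 82 (0.585%) were at least 1.5-fold higher at 60% fat and 79 (0.564%) lower, and without the centring 114 and 57. Only 2 (0.0143%) were at least 2-fold higher and 8 (0.0571%) lower. In sham the same diet comparison, which shares no library with it, gave 40 genes (0.285%) and 84 (0.6%) at 1.5-fold. Over promoter regions sham gave 1354 (7.15%) at least 1.5-fold higher, more than after TAC, and 468 (2.47%) lower. Over other regions sham gave 1668 (8.69%) higher and 1410 (7.34%) lower. Across promoter regions the TAC and sham ratios had a Spearman rho of 0.03 (18950 regions), and 0.11 over the 5069 regions with at least 500 tags in both TAC libraries. That rho describes regions of the same 4 libraries, which are not independent replicates. Above 0 were 48.1% of genes after TAC and below it 51.9% (45.2% and 54.8% in sham), which is the background for the counts of gene lists.

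Genes of mitosis had more H3K9ac at 60% fat after TAC. Of 27 measured mitosis genes, 25 were above 0 and 2 below (Cenpa and Top2a, both near 0), with a median of 0.34, against -0.01 over all genes. At least 1.5-fold higher were 4 of them, Mki67, Ccnb2, Tpx2 and Cdk1, where 0.585% of all genes were. In sham the same list had a median of -0.04, with 11 above and 16 below 0. In all 27 the TAC library at 60% fat had the highest signal of the 4 libraries, against 55.1% of all genes.

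Mki67, the gene of the proliferation marker Ki-67, had a signal of 60.9 after TAC at 60% fat, 32.0 after TAC at 10%, 17.5 in sham at 60% and 16.5 in sham at 10%, at chr7:135714678-135716380 (mm10), over the gene start. Both TAC libraries were above both sham libraries, and the ratio between the TAC diets was 0.86 (0.65 to 1.11), against 0.12 in sham. At Ccnb2, which encodes cyclin B2, the signals were 43.1, 24.2, 18.5 and 18.8 in that order, a ratio of 0.76 (0.43 to 1.14), against 0.03 in sham. Cdk1, the kinase that starts mitosis, had signals of 48.6, 28.6, 16.5 and 18.5 and a ratio of 0.69 (0.51 to 0.92), against -0.11 in sham. Tpx2, a spindle assembly factor, had 51.4, 29.8, 21.1 and 21.8 and a ratio of 0.72 (0.45 to 1.02). Cdk1 and Tpx2 are named after their values were seen. In these 4 genes the sham libraries lay close together, and the 2 TAC libraries lay apart with the 60% fat library higher.

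The rest of the mitosis list went the same way to a smaller extent. Aspm (spindle poles) had 0.58, Ccnb1 (cyclin B1) 0.58, Cenpf (kinetochore) 0.54, Ube2c and Cdc20 (the anaphase-promoting complex) 0.51 and 0.46, and Anln (cytokinesis) 0.47 (0.31 to 0.66). Plk1 and Bub1b, kinases of the spindle and its checkpoint, had 0.29 each, and Aurkb, whose strongest region is centred at -5011 bp from its start, had 0.11. The lowest were Top2a at -0.02 and Cenpa, the centromeric histone, at -0.04. Those named here beyond Anln were chosen after their values were seen, to show the range.

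**Figure D2:**
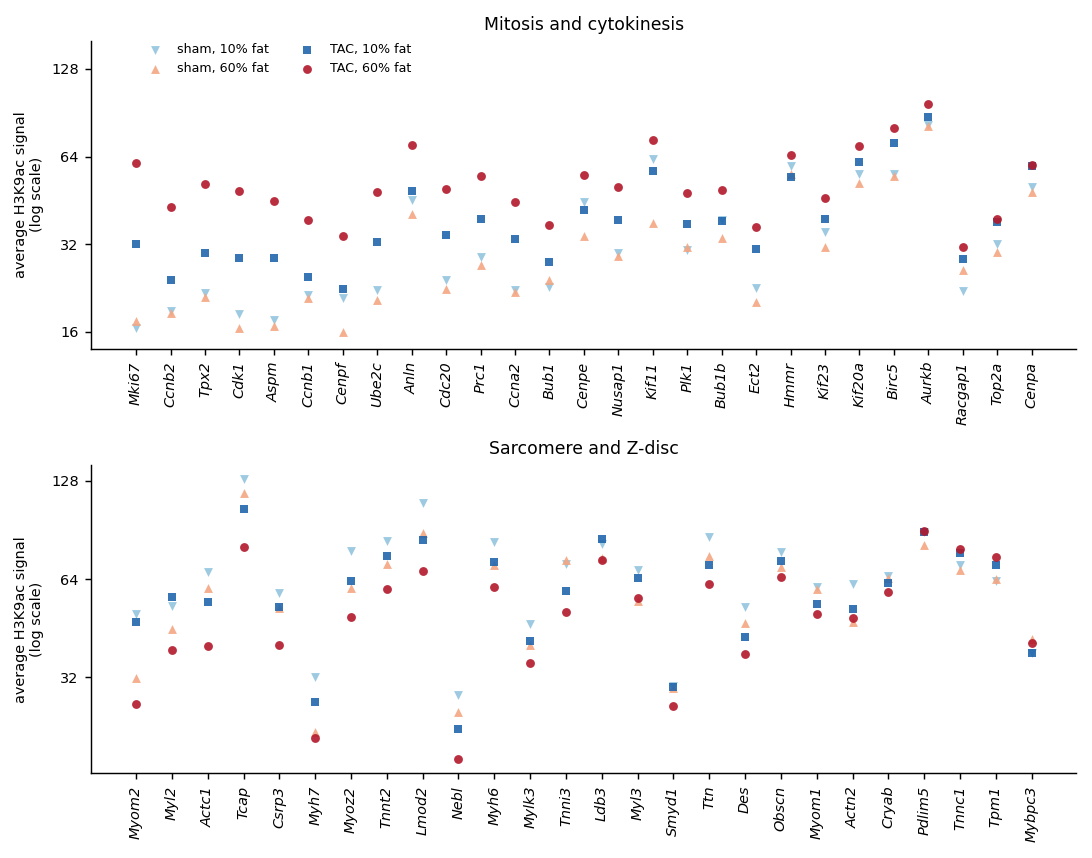
Average H3K9ac signal (log axis) of each measured mitosis gene (upper panel) and sarcomere gene (lower panel) in the 4 libraries, 1 point a library, ordered by the TAC ratio. The TAC library at 60% fat is the highest of 4 at all 27 mitosis genes and the lowest of 4 at 20 of 26 sarcomere genes.

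DNA replication genes followed with a median of 0.22, 26 of 29 above 0 and 3 below, and 0.13 with peak signals. In sham their median was 0.01, with 16 above and 13 below. Cdc6, which loads the replicative helicase onto origins, had signals of 46.4 and 28.7 after TAC at 60% and 10% fat and 18.6 and 19.4 in sham, a ratio of 0.62 (0.36 to 0.94). Tk1, thymidine kinase, had 49.6 and 31.3 after TAC and 23.4 and 22.9 in sham, a ratio of 0.60 (0.42 to 0.81). Tk1 shares its region with Afmid. Uhrf1, which directs DNA methylation to new strands, had 66.2 and 45.1 after TAC and 28.8 and 30.5 in sham, a ratio of 0.49 (0.32 to 0.69), in a region shared with Arrdc5. The third gene of this list past 1.5-fold was E2f8, a repressor of the E2F family, at 0.59, in a region shared with Gm2788. The subunits of the MCM helicase were nearer to 0, with Mcm6 at 0.30, Mcm3 at 0.28, Mcm5 at 0.22 and both Mcm2 and Mcm7, whose regions hold other promoters too, at 0.02. Below 0 were Rfc3 (-0.24), Pole (-0.21) and Gins1 (-0.01). E2f8, the MCM genes and these 3 were named after their values were seen.

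Sarcomere and Z-disc genes had less H3K9ac at 60% fat. Of 26 measured, 24 were below 0 and 2 above, with a median of -0.26, and 1 was at least 1.5-fold lower, where 0.564% of all genes were. In sham the median was -0.11 with 19 below and 7 above 0. The TAC library at 60% fat had the lowest signal of the 4 at 20 of the 26, against 11.6% of all genes. The ventricular cardiomyocyte markers, which share several genes with it, were below 0 at 14 of 14, with a median of -0.26 after TAC and -0.12 in sham.

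Myom2, which encodes an M-band protein, had signals of 26.4 after TAC at 60% fat, 47.3 after TAC at 10%, 31.9 in sham at 60% and 50.05 in sham at 10%, a TAC ratio of -0.87 (-1.31 to -0.49) and a sham ratio of -0.58. Both 60% fat libraries lay below both 10% fat libraries. Myl2, the regulatory light chain of the ventricle, had 38.8, 56.3, 45.1 and 53.0 in the same order, over chr5:122100831-122104496, a TAC ratio of -0.58 (-0.74 to -0.44) and a sham ratio of -0.18. At Actc1, cardiac actin, the 4 signals were 39.9, 54.4, 59.9 and 67.2, a TAC ratio of -0.49 (-0.64 to -0.35) and a sham ratio of -0.11. Its region also holds the promoter of C130080G10Rik, and that of Tcap the promoter of Pnmt. With the mean over its promoter regions Actc1 was at -0.06. In its strongest region Actc1 was lower in both TAC libraries than in sham, and Myl2 was not at 10% fat. Tcap, the cap of titin at the Z-disc, had 80.5, 104.8, 117.6 and 129.6, a TAC ratio of -0.43 (-0.55 to -0.31). Myh6, the main myosin heavy chain of the adult mouse ventricle, had 60.6, 72.1, 70.7 and 82.9 over a region of 17832 bp. Its ratio was -0.29 (-0.35 to -0.24), against -0.18 in sham. That region overlaps 3 promoters and is shared with D830015G02Rik and Mir208b. The genes above 0 were Tpm1 (0.03) and Mybpc3 (0.05), named after their values were seen.

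Regions outside promoters assigned to sarcomere genes went the same way, with 54 of 75 below 0 and a median of -0.21, against 47.7% below 0 and a median of 0.02 over all 14400 such regions with a gene. In sham 49 of the 75 were below 0, with a median of -0.12. By gene, all 5 regions of Tnnt2 (cardiac troponin T) were below 0 after TAC with a median of -0.52, and all 3 of Tnni3 (troponin I) with -0.60. Ttn, the gene of the giant elastic protein titin, had 5 of 7 below 0, with a median of -0.41. Actn2 had 4 above and 4 below. These genes were chosen after their values were seen.

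Other cardiomyocyte functions were lower as lists, though by less. Potassium and sodium channels had a median of -0.16 with 12 of 14 below 0, and -0.06 to -0.18 across the processing settings tried. Kcnip2, the subunit of the transient outward potassium current, had signals of 19.0 and 29.1 after TAC at 60% and 10% fat and 39.4 and 45.9 in sham, a ratio of -0.64 (-0.93 to -0.40). Its sham ratio was -0.16. Calcium handling had a median of -0.09 (16 of 20 below 0), with Trdn at -0.35 (-0.15 with peak signals) and Cacnb2 at -0.32, and cardiac transcription factors one of -0.08 (18 of 22). Esrrb, an orphan nuclear receptor of the estrogen-related family, had 23.8 and 39.4 after TAC and 40.5 and 46.5 in sham, a ratio of -0.75 (-1.11 to -0.43), and -0.38 with peak signals. Klf15, a glucocorticoid-induced factor of cardiac metabolism, had 59.1 and 71.8 after TAC and 82.6 and 93.2 in sham, a ratio of -0.33 (-0.44 to -0.22).

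Because whole heart tissue was used, fewer cells of a type and less mark per cell cannot be told apart. The cell type lists moved as follows, and their part in the results was not tested. Ventricular cardiomyocyte markers had a median signal of 53.3 after TAC at 60% fat (24.4 to 69.8 over 14 genes) and 59.1 at 10% fat (23.9 to 80.7). Fibroblast markers had 39.3 (22.0 to 60.1 over 16 genes) and 36.4 (17.1 to 46.7), with a median ratio of 0.04 and 10 of 16 above 0. Endothelial markers had 63.6 (19.1 to 98.9 over 18 genes) and 56.8 (19.97 to 93.9), with a median ratio of 0.06 and 13 of 18 above 0, against 0.08 and 13 in sham. Macrophage and myeloid markers were at -0.02 (8 of 18 above 0), smooth muscle and pericyte markers at -0.08 (4 of 12), atrial markers at -0.02 (2 of 5), adipocyte markers at -0.02 (3 of 8), brown adipocyte markers at -0.10 (0 of 6) and erythroid markers at 0.01 (2 of 4). Of the lymphocyte markers 6 of 18 were measured, with a median of 0.13. The neutrophil and mast cell, neural and epicardial lists had 2 measured genes each. The defining adipocyte genes Adipoq and Plin1 had no promoter region. Outside promoters, adipocyte markers had 10 regions, 10 above 0, with a median of 0.36 after TAC and 0.29 in sham. These belonged to only 3 genes (6 to Lipe, 3 to Pparg and 1 to Fabp4), and their median larger tag number was 24.9.

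**Figure D3:**
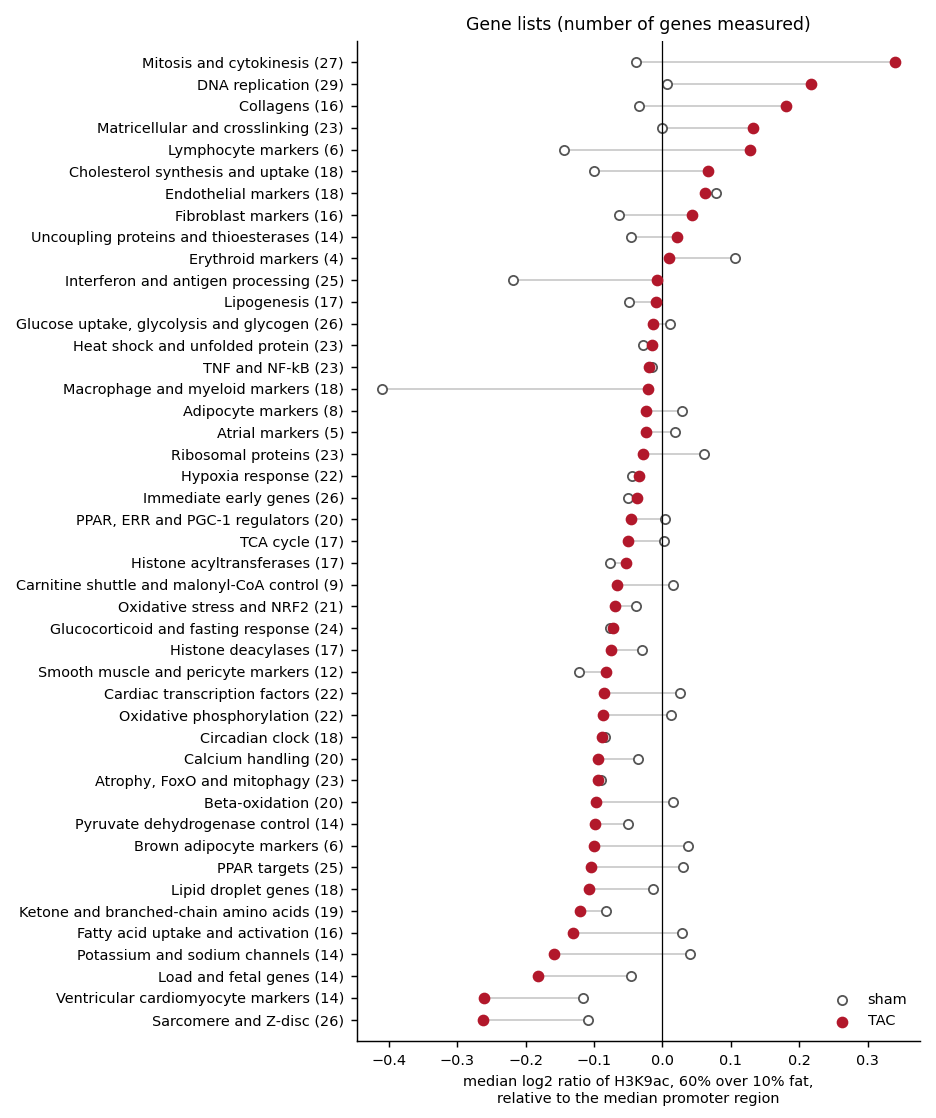
Median log2 ratio of H3K9ac at 60% over 10% fat for 45 gene lists, filled points after TAC and open points in sham, with the number of measured genes in brackets. Mitosis (0.34) and DNA replication (0.22) lie at the top after TAC and near 0 in sham, and sarcomere genes and ventricular markers (-0.26 each) lie at the bottom, with sham medians of -0.11 and -0.12.

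Genes of the extracellular matrix had more H3K9ac at 60% fat. Collagens had a median of 0.18 after TAC, 14 of 16 above 0, and -0.03 in sham, with 6 above. The 16 genes were measured in 15 regions. Col1a1, the main fibrillar collagen of scars, had signals of 42.7 after TAC at 60% fat, 30.2 after TAC at 10%, 25.3 in sham at 60% and 25.98 in sham at 10%, a TAC ratio of 0.43 (0.24 to 0.65), 0.27 with peak signals, and a sham ratio of 0.01. The 9 regions assigned to Col1a1 had ratios from -0.01 to 0.93, and 3 of them, farthest past its start, are also assigned to Sgca. Other fibrillar collagens were nearer to 0, with Col3a1 at 0.18 (-0.07 to 0.44) and Col1a2 at 0.05 (-0.18 to 0.29), both named after their values were seen. Col18a1, a basement membrane collagen, had 0.39 (0.01 to 0.80).

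Matricellular and crosslinking genes had a median of 0.13, 16 of 23 above 0, against 0.00 in sham. Thbs1, thrombospondin 1, an activator of TGF beta, had signals of 50.2 after TAC at 60% fat, 28.8 after TAC at 10%, 31.2 in sham at 60% and 28.6 in sham at 10% in its strongest region, a ratio of 0.73 (0.25 to 1.28). Its 3 other regions had ratios of 0.27, 0.79 and 1.80, and in all 4 the TAC library at 60% fat was the highest. Wisp1, a secreted factor of the CCN family, had 34.8 and 24.1 after TAC and 15.2 and 12.2 in sham, a ratio of 0.46 (0.05 to 0.92), and 0.29 with peak signals. Meox1, a homeobox factor of activated heart fibroblasts, had 60.1 and 42.0 after TAC and 33.5 and 28.2 in sham, a ratio of 0.46 (0.33 to 0.61), with 0.29 in sham. Ctgf, another CCN gene, was at -0.13 and Tgfb2 at -0.21, both named after their values were seen. Postn was under the minimum signal.

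Outside promoters, 50 of 62 regions assigned to collagen genes were above 0, with a median of 0.35, against 52.3% above 0 over all such regions with a gene. In sham 49 of the 62 were above 0, with a median of 0.25, while the promoters of the list had a sham median of -0.03. Of the 62, 22 belonged to Col4a1 and 29 to Col4a2, neighbouring genes of basement membrane collagen IV. Those of Col4a2 had a median of 0.40 (27 of 29 above 0) and those of Col4a1 one of 0.16 (14 of 22), with 0.14 and 0.45 in sham. Both genes were chosen after their values were seen. Regions outside promoters assigned to fibroblast markers had a median of 0.35 (26 of 36 above 0), with 0.20 in sham. Their median length was 454.5 bp and the median of their larger tag number 45.1, so single ones among them are weakly counted.

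Angptl4 had the highest ratio among promoters whose larger TAC signal reached the median over genes, which it did only at 60% fat. It encodes a secreted inhibitor of lipoprotein lipase and is a classic target of PPAR. Its signal over chr17:33778466-33782981 was 97.5 after TAC at 60% fat, 51.5 after TAC at 10%, 78.8 in sham at 60% and 54.4 in sham at 10%. Both 60% fat libraries lay above both 10% fat libraries. The ratio was 0.86 (0.76 to 0.98) after TAC and 0.57 in sham, and whether they differ cannot be tested with 1 library a group. A region 3.5 kb past the gene start had signals of 18.3 and 9.9 after TAC and 22.8 and 8.1 in sham, ratios of 0.77 (0.10 to 1.54) and 1.44. In H3K9Bu the promoter signals were 25.7 at 60% and 29.6 at 10% fat after TAC, a ratio of -0.20 as deposited and 0.13 relative to the H3K9Bu promoter median of -0.33. With peak signals Angptl4 had 0.62 and with the mean over its promoter regions 0.60.

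Most other PPAR targets had ratios near or below 0. Of 25 measured, 6 were above 0 and 19 below, with a median of -0.10 (-0.05 as deposited), while in sham 16 were above 0 and the median was 0.03. Plin2, which coats lipid droplets, had 0.22 after TAC and 0.31 in sham (named after its values were seen), and Ucp3, a mitochondrial carrier, 0.12 (-0.03 to 0.27) and 0.28. Pdk4, the kinase that blocks pyruvate oxidation, had signals of 63.0 and 64.4 after TAC and 88.2 and 93.1 in sham, a ratio of -0.08 (-0.17 to 0.01). Cpt1a, the gate of fatty acids into mitochondria, had 0.00 (-0.08 to 0.09). The muscle form Cpt1b, in a region shared with Chkb and BC090627, had -0.06 (-0.20 to 0.07). The middle of that region lies at -3749 bp relative to the Cpt1b start, so its signal is not specific to Cpt1b. Across the processing settings tried, the ratio of Cpt1b ran from -0.29 to -0.01, beyond its counting interval at the lower end.

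Lower at 60% fat after TAC were several genes of fat uptake and storage. Vldlr, a receptor for triglyceride-rich lipoproteins, had signals of 51.4 after TAC at 60% fat, 64.2 after TAC at 10%, 72.3 in sham at 60% and 84.0 in sham at 10%, a ratio of -0.37 (-0.51 to -0.24). Plin5, which ties lipid droplets to mitochondria, had 53.2, 66.0, 84.2 and 82.9, a ratio of -0.36 (-0.51 to -0.22), with 0.07 in sham. Its region also overlaps the promoter of Lrg1, and with regions within 2000 bp of the start Plin5 was at -0.01. With peak signals Vldlr was at -0.06, and with the mean over promoter regions Plin4 was at -0.10. Plin4 had -0.41 (-0.55 to -0.29), Acot1, a cytosolic acyl-CoA thioesterase, -0.32 (-0.63 to -0.02), and Cd36, the fatty acid translocase, -0.19 (-0.29 to -0.09), with 0.07 in sham. Acsl6, an acyl-CoA synthetase, had 14.9 and 28.4 after TAC and 16.9 and 15.9 in sham, a ratio of -0.94 (-1.60 to -0.40) in a region of under 100 tags. Fatty acid uptake and activation had a median of -0.13 (10 of 16 below 0) and lipid droplet genes -0.11 (15 of 18 below 0). With the mean over regions the first was -0.02. Outside promoters, 28 of 43 regions of lipid droplet genes were above 0, with a median of 0.13 (0.16 in sham).

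**Figure D4:**
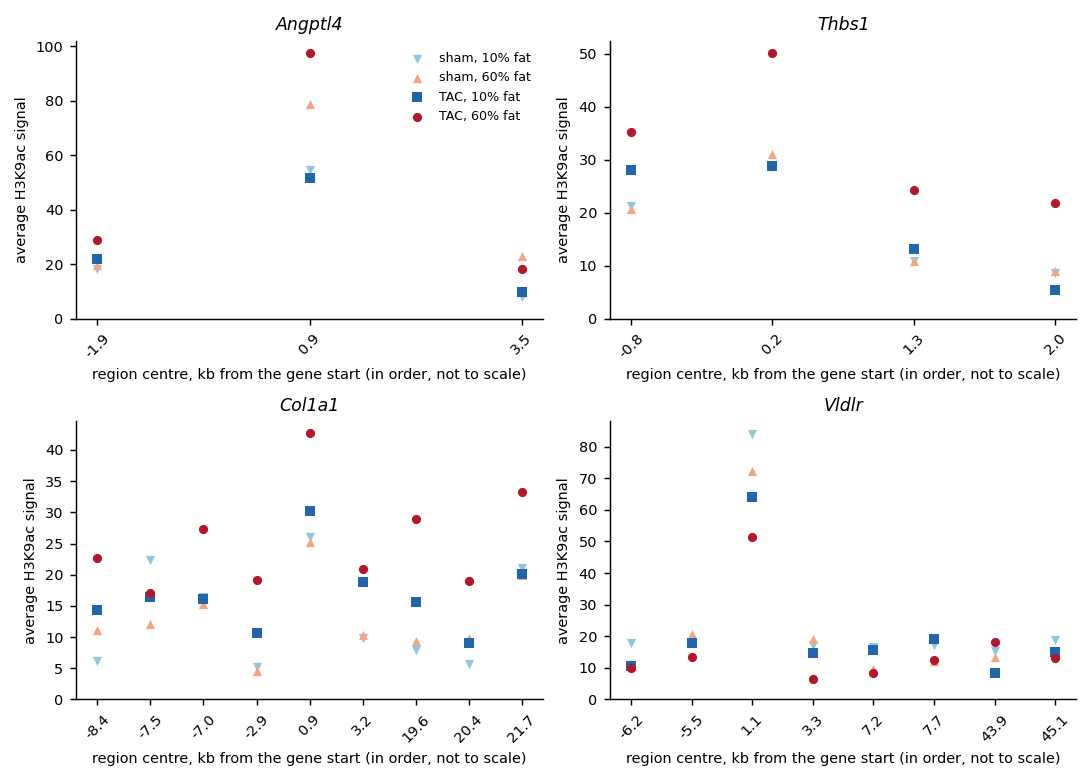
Average H3K9ac signal of every region assigned to Angptl4, Thbs1, Col1a1 and Vldlr in the 4 libraries, in order of the distance of the region's centre from the gene start in kb. At Angptl4 both 60% fat libraries lie above the 10% fat ones in the promoter region, and at Thbs1 the TAC library at 60% fat is the highest of 4 in all 4 regions.

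Lists of mitochondrial metabolism were shifted down by a small and even amount. Beta-oxidation had a median of -0.10 with 18 of 20 genes (in 19 regions) below 0. Oxidative phosphorylation had -0.09 with 20 of 22 and the TCA cycle -0.05 with 15 of 17. Pyruvate dehydrogenase control had -0.10 with 13 of 14, and ketone and branched-chain amino acid catabolism -0.12 with 17 of 19. In sham their medians were 0.02, 0.01, 0.00, -0.05 and -0.08. As deposited, without the centring, the 5 medians were -0.05, -0.04, -0.00, -0.05 and -0.07. Cox6a2, the heart and muscle form of a cytochrome oxidase subunit, was the lowest of them, with 43.1 and 59.3 after TAC and 60.5 and 67.3 in sham, a ratio of -0.50 (-0.72 to -0.30). Idh2, mitochondrial isocitrate dehydrogenase, had 53.4 and 68.9 after TAC and 60.8 and 68.9 in sham, a ratio of -0.41 (-0.53 to -0.31).

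Mlxipl, the gene of the glucose-sensing factor ChREBP, had 43.9 and 60.0 after TAC and 54.4 and 60.4 in sham, a ratio of -0.49 (-0.78 to -0.23), or -0.31 with the mean over promoter regions, and lipogenic genes had a median of -0.01. Cholesterol synthesis and uptake had a median of 0.07, 11 of 18 above 0, and -0.10 in sham. Stard4, a carrier of cholesterol within the cell, had 56.2 and 38.9 after TAC and 35.5 and 40.0 in sham, a ratio of 0.47 (0.27 to 0.70). There the TAC library at 60% fat was the highest and the other 3 lay close together.

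The fetal and load genes, which check the surgery label, were higher in TAC than in sham at Nppb and Ankrd1, with diet ratios near 0. Nppb, B-type natriuretic peptide, had 39.3 and 38.0 after TAC at 60% and 10% fat and 12.9 and 15.9 in sham, a diet ratio of -0.00 (-0.28 to 0.28) after TAC. Ankrd1, a stress-induced protein of the sarcomere, had 40.4 and 41.7 after TAC and 22.0 and 26 in sham, a ratio of -0.10 (-0.25 to 0.06). The whole list had a median of -0.18 (-0.12 with the mean over regions), 11 of 14 below 0, with Xirp2 (-0.52) and Actc1 farthest down and Tnni1, slow skeletal troponin I, at 0.60 (named after its value was seen). Nppa and Acta1 had no promoter region.

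Of the immune lists, interferon and antigen processing genes (25 genes in 23 regions) had a median of -0.01 after TAC, with 11 above 0. In sham their median was -0.22, with 0 of 25 above 0. TNF and NF-kB genes had -0.02 after TAC and -0.01 in sham, and lymphocyte markers 0.13 and -0.14. Macrophage and myeloid markers had a median of -0.02 after TAC and -0.41 in sham, 0 of 18 above 0. Tyrobp, an adaptor of myeloid receptors chosen after its values were seen, had 35.0 and 29.5 after TAC and 16.6 and 30.4 in sham, so the sham library at 60% fat was the low one. The difference between the TAC and sham ratios could not be tested. Circadian genes, which would show unequal times of collection, had medians of -0.09 after TAC and -0.08 in sham, with Per2 at -0.22 (-0.34 to -0.11, and -0.10 with peak signals), Dbp at -0.07 and Nr1d1 at 0.03 after TAC.

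The other lists lay within 0.1 of 0 after TAC, where taking values as deposited adds 0.05 to each median and turns those just below 0 positive. Their medians were -0.09 for atrophy, FoxO and mitophagy, -0.07 for glucocorticoid and fasting response, -0.07 for oxidative stress, -0.05 for PPAR, ERR and PGC-1 regulators, -0.04 for immediate early genes, -0.03 for hypoxia response and -0.03 for ribosomal proteins. Histone acyltransferases had -0.05 (12 of 17 below 0) and deacylases -0.07 (10 of 17). Carnitine shuttle genes had -0.07, TNF and NF-kB genes -0.02, heat shock genes -0.02, glucose uptake and glycolysis -0.01, and uncoupling proteins and thioesterases 0.02. Outside promoters, 39 of 51 regions of glucose uptake and glycolysis genes were below 0, with a median of -0.13 (-0.05 in sham). For atrophy, FoxO and mitophagy 33 of 45 were below 0, with a median of -0.17 (-0.04 in sham). All 6 such regions of ribosomal protein genes were above 0. These lists were picked after their values were seen. Gapdh, a common reference gene of glycolysis, had a ratio of 0.15 (0.04 to 0.27), and 0.04 with peak signals.

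Promoters were ranked where the larger signal of the 2 TAC libraries reached the median over genes (64.3). Among them, the 9 highest ratios after Angptl4 ran from 0.36 to 0.49, and several belonged to genes of the cell cycle. The 9 were Uhrf1, Emp1 (0.48), a membrane protein of epithelia, Anln and Kif22 (0.47 each), Dera and Inf2 (0.41 each), Ccnf (0.38), Rad18 and Gins2 (0.36 each). All of the 9 but Inf2 reached that signal only at 60% fat, so the filter helped to shape this end of the ranking. Kif22 is a mitotic kinesin, Ccnf is cyclin F, Rad18 acts in repair at stalled forks and Gins2 belongs to the replicative helicase. Inf2, an actin-binding formin, was at -0.06 with the mean over its promoter regions, and Dera is an aldolase of deoxyribose phosphate. With the mean over promoter regions Gins2 was at 0.00, and with peak signals Anln was at 0.06. Emp1 had the largest tag number of them, with 68.7 and 47.2 after TAC and 33.8 and 32.5 in sham.

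The 10 lowest of the same promoters ran from -0.51 to -0.38. They were Scrn2, Adck3, Gstt1, Dcxr, Tcap, Plin4, Idh2, Sult1a1, Nr3c2 and Aqp1. All but Adck3, Tcap and Nr3c2 reached the median signal only at 10% fat. The region of Scrn2 (-0.51) is centred at -7722 bp from its start, and with regions within 2000 bp Scrn2 was at -0.06. With the mean over promoter regions Dcxr was at -0.01, Plin4 at -0.10 and Aqp1 at -0.20. With peak signals Idh2 was at -0.10 and Adck3 at -0.14. Adck3, a kinase-like protein of coenzyme Q synthesis, had the tightest interval, with 66.6 and 89.3 after TAC and 79.9 and 90.9 in sham, a ratio of -0.47 (-0.57 to -0.38). Gstt1 (-0.46) and Sult1a1 (-0.40) encode conjugating enzymes, Nr3c2 (-0.38) the mineralocorticoid receptor and Aqp1 (-0.38) a water channel of endothelium. Aqp1 had 54.8 and 69.3 after TAC and 75.7 and 77.9 in sham, with a sham ratio of 0.01.

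**Figure D5:**
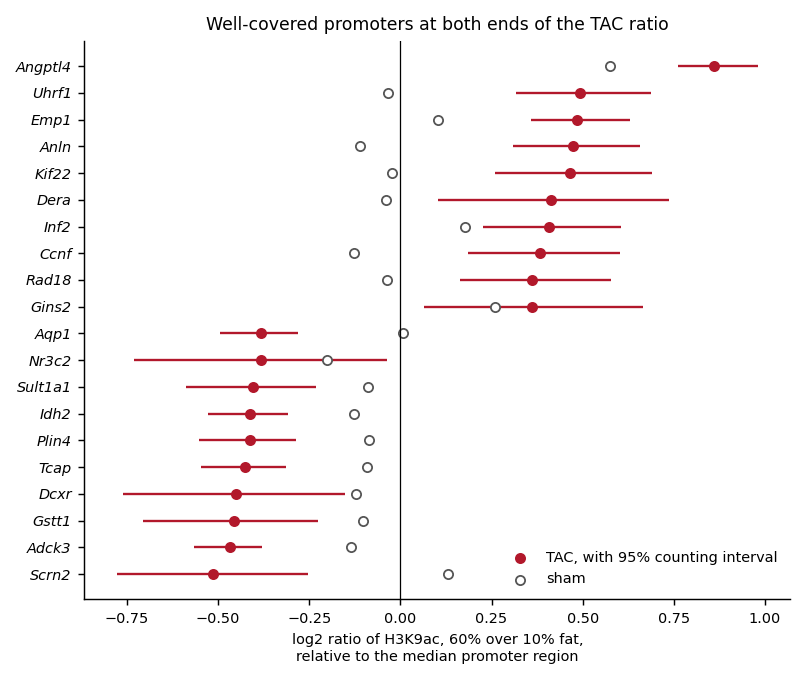
Log2 ratio of H3K9ac at 60% over 10% fat at the 10 highest and 10 lowest promoters whose larger TAC signal reached the median over genes. Filled points are after TAC, with the 95% counting interval as a bar, and open points in sham. Angptl4 stands at 0.86 after TAC and 0.57 in sham, and the other 9 highest lie between 0.36 and 0.49.

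Outside promoters, the regions with the most extreme ratios held few tags. By the fixed rule the highest was at chr6:28929305-28929607, with no gene assigned, with signals of 26 and 3.2 after TAC and 6.3 and 33.4 in sham, a ratio of 2.63 on 35.1 and 4.3 tags. The next 4 highest ran from 1.57 to 1.76 and the 5 lowest from -1.86 to -1.53, each with fewer than 50 tags in the larger library. A limit of at least 100 tags in the larger TAC library was set after the data were seen. Among the regions that met it, the lowest was 26.5 kb past the start of Cmtm8, at chr9:114817145-114818207. It held 52.7 tags at 60% fat and 121.0 at 10%. Its signals were 11.1 and 25.5 after TAC and 32.3 and 28.6 in sham, a ratio of -1.18 (-1.73 to -0.76). Next to it, a region 25.4 kb past the start had 35.4 and 62.0 after TAC and 80.3 and 82.5 in sham, a ratio of -0.84 (-1.20 to -0.54), while the promoter region of Cmtm8 had -0.18. Highest at that limit was a region assigned to Prr7 and Dbn1, with 28.7 and 12.9 after TAC on 117.3 and 52.9 tags. Its ratio was 1.04 (0.61 to 1.59) after TAC and 0.24 in sham.

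H3K9Bu was measured in the same TAC groups and in a separate table, so ratios within each table were set side by side. The H3K9Bu promoter median was -0.33 after TAC, and H3K9Bu ratios below are relative to it unless given as deposited. Of the 648 higher promoter regions, 142 (21.9%) overlapped an H3K9Bu region, against 74.7% of all promoter regions. Their median H3K9Bu ratio was 0.26, 104 above and 38 below 0, against -0.07 for all promoter regions with an overlap. As deposited the sign turned, with medians of -0.07 (60 above and 82 below 0) and -0.40. The 508 lower ones had 190 overlaps (37.4%) and a median of 0.08, with 109 above and 81 below 0, and as deposited -0.25. Over genes, the median H3K9Bu ratio was -0.11, with 33.9% above and 66.1% below 0 of 12795. Against that background, mitosis genes had a median H3K9Bu ratio of 0.01 (11 of 22 above 0), DNA replication genes -0.10, collagens -0.03 and sarcomere genes -0.31 (24 of 26 below 0). As deposited these medians were -0.32, -0.43, -0.36 and -0.64, against -0.44 over all genes, so the direction of the first depends on the centring. Sarcomere genes had medians below 0 in both marks with and without it. As deposited, 25 of 26 sarcomere genes were below 0 in H3K9Bu, near the share of all genes (93.3%). Among the 4 mitosis genes past 1.5-fold in H3K9ac, Mki67 had no H3K9Bu region. Ccnb2 and Tpx2 had H3K9Bu ratios of -0.13 and -0.46, and Cdk1 had -0.91 on signals of 3.4 and 9.4. Col1a1 had -0.98 on signals of 6.1 and 16.6, while 5 of 12 collagens were above 0. Those genes were chosen after their values were seen. Whether the marks differ was not tested.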

How the data were processed

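H3K9ac ChIP libraries of mouse heart were used as deposited. The submitters' processing notes name BWA, SICER and the mm10 build. Tool versions, filters on tags and the scaling between libraries are not given in the sources used here. Intervals called in 4 libraries were merged by the authors, who deposited an average signal and a peak signal (tag density) for each, per the file headers, with log2 ratios and a called mark of 0 or 1. The deposited log2 ratio equalled the one recomputed here in 38150 of 38150 regions (within 1e-06). Tags were estimated as average signal times length over 224, a relation that held for 38150 of 38150 deposited tag numbers.

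Ratios used a pseudocount of 1 and were centred on the promoter median (pandas 2.3.3, numpy 2.4.6, scipy 1.17.1). A gene's region was the strongest one overlapping 7500 bp before to 2500 bp after its start, above the 25th percentile of mean signal. Of 14590 symbols, 14218 matched a RefSeq symbol or synonym, and list members were matched through synonyms that belong to 1 gene only. Named by rule were the 10 highest and 10 lowest promoters whose larger TAC signal reached the median over genes. So were 2 members of each list farthest in the direction of its median, fixed genes, and 5 regions at each end outside promoters. The members and lists were chosen with earlier results of these data known. Some genes that the rule names are not reported here. With 1 library a group no test was made. The script was tested on simulated data.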

Additional observations from a re-analysis of the deposited data

Results flagged for a closer look

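The lymphocyte markers had a median ratio of H3K9ac at 60% over 10% fat of 0.13 after TAC and -0.14 in sham. The list was picked out because both medians were at least 0.1 from 0 and opposite in sign. With 1 library a group the difference was not tested. Only 6 of its 18 genes were measured, 5 of 6 above 0 after TAC and 2 of 6 in sham. Cd2 and Cd79a, at 0.89 each after TAC, had fewer than 100 tags. Their regions are centred at -7596 and -6777 bp from the gene starts and were not called at 10% fat after TAC.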

How the results depend on the processing

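No paired analysis was possible because each group has 1 library, and for the same reason no replicate could be left out. Counts past 1.5-fold depended on how low signals were treated. Promoter regions higher and lower were 341 and 281 with a pseudocount of 5, 209 and 200 above the 25th percentile of mean signal, 91 and 64 among regions called in both TAC libraries, and 59 and 41 with at least 100 tags (added after seeing the data). Other regions were 895 and 744, 471 and 520, 112 and 87, and 52 and 48 in that order. Genes were 42 and 42 with a pseudocount of 5, 166 and 135 with no minimum signal, and 44 and 31 with at least 100 tags, and 59 and 41 among regions called in both libraries. The limit of 100 tags applied to the larger TAC library. Under the limits on tags and on calls, ratios were centred again on the promoter regions kept. Those counts therefore need not equal the ones with the main centring. Lists with a median of -0.1 or less numbered 9, but 4 as deposited and 14 with peak signals. Named genes moved by more than their counting error in 19 cases with peak signals, 16 with the mean over promoter regions and 3 with regions within 2000 bp of the start, and some within 1.5-fold changed sign (Inf2, for example). No list at least 0.1 from 0 and no named gene past 1.5-fold changed sign under an alternative that gave a value. Mitosis genes kept medians from 0.28 to 0.39 and sarcomere genes from -0.28 to -0.21 over all settings. Depth limits short regions most, and mice were pooled, so the spread between animals is unknown.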

Other observations

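With the main centring, 41 genes past 1.5-fold with at least 100 tags in the larger TAC library were higher at 60% fat (in 34 regions). Lower were 30 (in 28 regions). The genes named here were chosen after their values were seen, and no test was made. Higher genes outside the lists included more of cell division. Neil3, a DNA glycosylase, had signals of 36.4 and 18.6 after TAC at 60% and 10% fat and 10.2 and 10.4 in sham, a ratio of 0.88 (0.51 to 1.36). Knstrn, a kinetochore protein, had 44.2 and 23.6 after TAC and 16.2 and 19.1 in sham, a ratio of 0.83 (0.55 to 1.18). Pbk, a mitotic kinase, had 0.72, Kif14, a kinesin of cytokinesis, 0.62, and Spc24, of the kinetochore, 0.59. Replication-dependent histone genes were also there, with 0.72 at Hist1h3g and 0.67 in the region shared by Hist2h3c2, Hist2h2aa1 and Hist2h2aa2. Reads of such near-identical copies may be split between them. Beyond the cell cycle, Apln, the apelin peptide, had 37.7 and 23.4 after TAC and 15.8 and 17.4 in sham, a ratio of 0.61 (0.18 to 1.09), and Hdc, histidine decarboxylase, had 0.71.

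The lowest of the well-tagged genes was Ces1d, a carboxylesterase that hydrolyses triglycerides. Its signals were 17.5 after TAC at 60% fat, 37.5 after TAC at 10%, 36.3 in sham at 60% and 38.0 in sham at 10%, so the TAC library at 60% fat stood alone, with a ratio of -1.11 (-1.50 to -0.82). Ppl, periplakin, had 15.8 and 29.8 after TAC and 36.7 and 42.9 in sham, a ratio of -0.93 (-1.29 to -0.65). Sgca, alpha-sarcoglycan of the dystrophin complex, had 25.2 and 43.1 after TAC and 52.7 and 56.8 in sham, a ratio of -0.80 (-1.09 to -0.56). C1qtnf9, a secreted relative of adiponectin, had -0.89 (-1.40 to -0.48), with -0.28 in sham. Scara5, a ferritin receptor, had 13.7 and 20.5 after TAC and 31.6 and 33.1 in sham, a ratio of -0.60 (-0.92 to -0.35).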
